A study of Mus musculus with 4 samples.

Results

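The genes described here are 10 members of the Eph receptor and ephrin family: the ephrin genes Efna4, Efna5, Efnb1, Efnb2 and Efnb3 and the receptor genes Epha3, Epha4, Epha7, Ephb2 and Ephb3. They are 10 of the 22 genes of the family in the mouse (8 ephrins and 14 receptors), out of 21887 protein-coding genes, and were listed with earlier results of these peak lists known. For each, the Isl1 peaks with a midpoint inside the gene or within 500 kb of it were collected. Isl1 is a LIM-homeodomain transcription factor, and its positions on DNA were mapped by chromatin immunoprecipitation and sequencing (ChIP-seq) in genital tubercles, the outgrowths that form the penis or clitoris, of wildtype CD1 embryos at E14.5 (embryonic day), with a rabbit monoclonal antibody against ISL1. Both ChIP replicates are this single group. The 2 input DNA samples were not analysed here, and the labels do not say whether the replicates came from separate litters or how many embryos or which sexes were pooled. Peak lists hold no expression values, so neither the tissue's markers nor the activity of these genes can be read from them.

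Eph receptors form a large family of receptor tyrosine kinases, and ephrins are their membrane-bound ligands, so the signal passes between touching cells. A-type ephrins are held by a lipid anchor, and B-type ephrins span the membrane and can signal back into the cell that carries them. The system sorts cells, draws tissue boundaries and guides axons, and mouse mutants of Efnb2, Ephb2 and Ephb3 have been tied to faulty closure of the urethra and of the anorectal septum.

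Isl1 sat on the promoters of Epha3, Ephb2 and Efna4 with scores high in the lists, as was common at starts. Inside or within 500 kb of Epha4 and Efna5 it had 12 and 11 sites that were nearly all distant from the start. Of these, 3 and 5 were inside or within 100 kb. Efnb2 and Epha7 had 4 sites each, all outside the genes, and Efnb1 had 1 far upstream. Replicate 1 had 69 peaks at the 10 genes and replicate 2 had 90. Peaks that overlapped between replicates by at least 1 bp were joined into shared regions, of which 57 of the 6834 in all lay at these genes. The authors' peak score is a whole number used here only to rank peaks within a list. Each region is given with its score in replicate 1 and then in replicate 2. The score percentile is the share of the same list that lies below, with peaks of equal score placed at the middle of their tie. All positions are in mm10. There is no second condition, so the values below are descriptions and no test was made.

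Isl1 regions touched the promoters of 3 of the 9 members with a start site in the RefSeq promoter table (Epha3, Ephb2 and Efna4). These regions had their midpoint within 1 kb of the start, as did those of 4.93% of 17492 protein-coding genes with such a start. The list appears to have been drawn up knowing which genes had a region inside or nearest to them, so this difference is not read further. Both replicates placed a peak on each of the 3 promoters, and those of Epha3 and Efna4, which lie outside the annotated gene span, are shown. Each is the 250 bases before the start, 5′ to 3′ in the direction of transcription, from RefSeq, build GRCm38.p6, whose coordinates are those of mm10. Epha3 is chr16:63864176-63864425 and Efna4 is chr3:89338029-89338278, both on the minus strand, and capitals mark the bases covered by the peaks of both replicates.
Epha3: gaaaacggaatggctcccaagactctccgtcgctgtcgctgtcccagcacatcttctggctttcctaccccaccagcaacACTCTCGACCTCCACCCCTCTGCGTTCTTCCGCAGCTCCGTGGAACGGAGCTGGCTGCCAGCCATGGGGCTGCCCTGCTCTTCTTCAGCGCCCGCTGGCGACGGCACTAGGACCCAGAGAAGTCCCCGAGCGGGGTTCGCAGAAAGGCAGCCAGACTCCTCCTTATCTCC
Efna4: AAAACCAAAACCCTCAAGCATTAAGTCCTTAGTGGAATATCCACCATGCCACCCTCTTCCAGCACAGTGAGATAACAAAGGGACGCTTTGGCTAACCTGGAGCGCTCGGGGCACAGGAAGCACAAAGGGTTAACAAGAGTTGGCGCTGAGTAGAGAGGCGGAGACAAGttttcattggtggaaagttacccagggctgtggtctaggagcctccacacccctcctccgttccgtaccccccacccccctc

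In Epha3 the covered stretch ran from base -170 to the base before the start, and in Efna4 from -250 to -83, with -1 as the last base before the start. In Ephb2 all 250 bases (chr4:136836013-136836262, minus strand) were covered, and they lie inside the gene's annotated span, whose longer transcripts start farther out. Fixed motifs were searched on both strands of these windows. The core TAAT of homeodomain sites was in the window of 3 of the 9 members, against 54.9% of 32851 RefSeq promoter windows of this length. Efna4 held it once, at -231 and within the capitals, and neither Epha3 nor Ephb2 held it. Longer forms that contain it were in none of the 9 windows: TAATTA (4.84% of all windows), TAATTG (7.17%), CTAATG (6.36%) and TAATGG (6.57%). A second Epha7 start that lies 14 bases on has TAATTG at -19. CCAAT was in 6 of 9 windows (33.8% of all), Ephb2 at -64 among them, and in Efna4 it lay at -77, outside the capitals. GGGCGG was in 5 of 9 (32.7%), GGAA in 8 of 9 (93.4%) and AGATAA in 2 of 9 (9.99%), Efna4 at -181 and Epha3 at -8. Also in none of the 9 were CACGTG (6.02% of all), TGACTCA (4.46%), TTTACGA (0.478%) and AATAAA (18.1%). The GC content of the 9 windows ran from 54.4% (Efna4) to 74.8% (Efna5) with a median of 66.0%, against a median of 52.4% (quartiles 45.2 and 61.2%) over all windows. A window without these letters shows only that they are not in those 250 bases. The sequences under the distal regions were not analysed here.

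**Figure D1:**
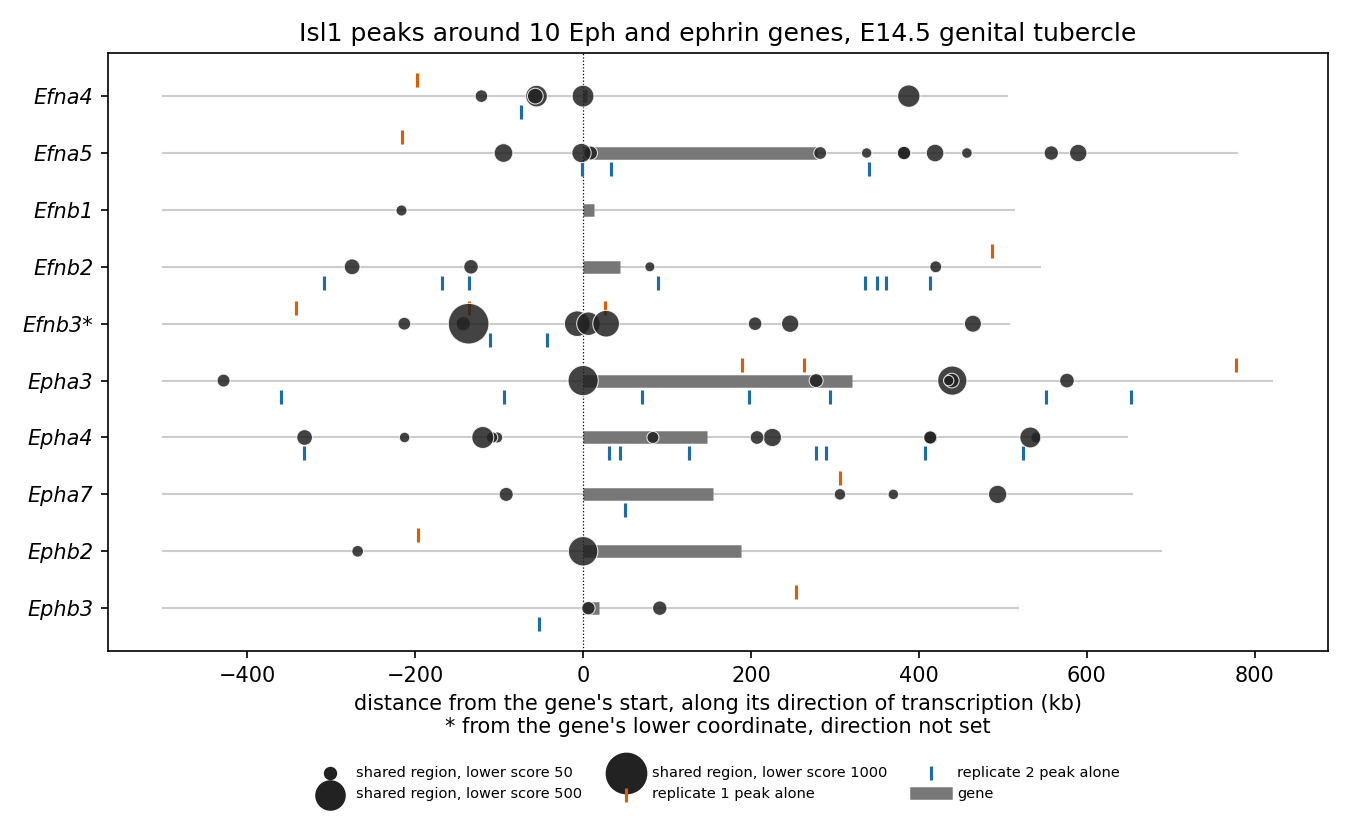
Isl1 peaks around the 10 genes, by distance in kb from each gene's start in the direction of transcription (Efnb3 is drawn from its lower coordinate). Black circles are shared regions with an area that grows with the lower of the 2 scores, orange and blue ticks are peaks of replicate 1 or 2 alone, thick bars are genes and thin lines the 500 kb windows. Large circles sit on the starts of Epha3 and Ephb2, whereas the 12 regions of Epha4 are spread over the gene and both flanks.

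Among the A-type ephrins, Efna5 (chromosome 17, 62602957 to 62881317) had the most regions. Replicate 1 had 12 peaks at it and replicate 2 had 14, which gave 11 shared regions. Efna5 encodes a ligand best known for steering retinal and cortical axons by repulsion. Only 2 other protein-coding genes reach into its window, and Efna5 was the nearest gene to 10 of the 11. The region closest to its start was 2.01 kb upstream (62883251 to 62883422, scores 211 and 294) and had the highest lower score at this gene. Replicate 2 had a further peak beside it (62883044 to 62883146, score 60) without a partner in replicate 1. The single region inside the gene (62872416 to 62872657, scores 93 and 109) was 8.78 kb past the start. On the downstream side 8 regions were strung out from 4.02 to 311 kb beyond the gene's end. Of these the highest scores were at 62461691 to 62462361 (170 and 207) and at 62291370 to 62291736 (165 and 171), and the lowest were at 62424103 to 62424273 in replicate 1 (39 and 99) and at 62543503 to 62543713 in replicate 2 (83 and 37). A region at 62976070 to 62976345 (196 and 249), upstream of Efna5, was nearer to Fbxl17, which encodes an F-box protein. Both upstream regions outscored the region inside the gene in each replicate.

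Efna4 (chromosome 3, 89333393 to 89338028) encodes another lipid-anchored ligand and lies in a gene-rich stretch, with 38 other protein-coding genes in its window. Each replicate had 6 peaks there, and 5 regions were shared. The promoter region (89338094 to 89338376) had its midpoint 213 bp upstream of the start, with scores of 279 and 314, at the 88.1 and 90.5 percentile of the lists. The other 4 regions lay at neighbours. Zbtb7b, a zinc finger transcription factor gene, had a region at -261 bp from its start (scores 273 and 294) and another 1.38 kb outside the gene (186 and 129). Dap3, a mitochondrial ribosomal protein gene, held the highest score in replicate 1 (584, against 294 in replicate 2), and Pmvk, an enzyme gene of the mevalonate pathway, the lowest scores (93 and 71). The same 5 regions lay within 500 kb of Efna1 and Efna3, which sit beside Efna4. The promoter region was 15.3 kb from Efna3 and 57.3 kb from Efna1.

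Of the B-type ephrins, Efnb2 (chromosome 8, 8617235 to 8661242) had the largest gap between replicates. Its product is the main ephrin partner of Ephb2, Ephb3 and Ephb4 and marks arterial endothelium. Replicate 1 had 5 peaks in its window and replicate 2 had 14. They shared 4 regions, and in 2 of these a replicate 1 peak met 2 replicate 2 peaks. The 8 peaks of replicate 2 alone were weak, with scores from 37 to 90 (median 65), and the single peak of replicate 1 alone had a score of 39. No peak of either list lay inside Efnb2. The closest region, 35.4 kb beyond its end (8581766 to 8581899), had scores of 73 and 32. By the lower score the strongest was 275 kb upstream of Efnb2 and nearer to Arglu1 (8936328 to 8936905, scores 130 and 138), while in replicate 2 the region at 8794528 to 8795002 scored higher (105 and 154). When each peak had to cover 50% of its partner, 2 of the 4 regions were left.

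Efnb1 (chromosome X, 99136061 to 99149022) had the fewest peaks. It encodes the B-type ephrin whose loss in humans causes craniofrontonasal syndrome. Each replicate had 1 peak in its window, and they overlapped (98919135 to 98919314, scores 46 and 83). This region was 217 kb upstream of Efnb1 and nearer to Yipf6, so that no region was inside Efnb1 or nearest to it. Chromosome X as a whole held 107 of the 6834 shared regions (1.57%) and 966 of the 21887 protein-coding genes (4.41%).

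Efnb3 (chromosome 11, 69554092 to 69561150), a ligand of the midline of the spinal cord, lies among 63 other protein-coding genes. Replicate 1 had 12 peaks in its window and replicate 2 had 11, and 9 regions were shared. The region inside Efnb3 (69560194 to 69560476) had scores of 354 and 328, at the 91.7 and 91.3 percentile. Its midpoint was 6.23 kb from the lower end of the 7.06 kb span, and so within 1 kb of the upper end. With no start or direction listed for Efnb3, its distance from the start is unknown. The other 8 were inside or nearest to other genes. Kdm6b, a histone demethylase gene, held the strongest region at any of the 10 members (69417499 to 69417734, scores 1070 and 1053, the 99.4 and 99.7 percentile). Regions inside Dnah2, a dynein gene (707 and 397), and the tumour suppressor gene Trp53 (433 and 466) flanked Efnb3. The weaker 5 were inside Kdm6b, Fgf11 and Dlg4 or closest to Chd3 and Polr2a. The count of 9 at Efnb3 is thus shared among 8 genes: by nearest gene only, 1 region was its own.

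Among the A-type receptors, Epha4 (chromosome 1, 77367182 to 77515107) had the most shared regions of the 10 genes. Epha4 binds ephrins of both types and keeps corticospinal axons on their side of the midline. Replicate 1 had 12 peaks and replicate 2 had 20, and all 12 of replicate 1 were shared. No other protein-coding gene reaches into the window, and Epha4 was the nearest gene to 11 of the 12 regions, Pax3 to the other. The region with the highest lower score was 119.6 kb upstream (77634498 to 77634818, scores 284 and 361). Next came regions 385 kb (76982213 to 76982663, 253 and 333) and 77.5 kb (77289567 to 77289900, 186 and 233) beyond the gene's end. The region inside the gene (77431894 to 77432122) scored 61 in each replicate. Nothing shared lay within 50 kb of its start, where replicate 2 alone had 2 peaks (77471089 to 77471308, score 44, and 77484840 to 77484952, score 83). The 8 peaks of replicate 2 alone had scores from 44 to 84 (median 61.5), so the excess in replicate 2 was made of weak peaks. With a score of at least 100 required in both lists, 4 of the 12 regions were left.

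Epha3 (chromosome 16, 63543532 to 63864175) encodes a receptor that binds A-type ephrins, Efna5 among them. Replicate 1 had 10 peaks, replicate 2 had 14, and 7 regions were shared. The promoter region (63864120 to 63864404) had its midpoint 72 bp upstream of the start and scores of 734 and 565, at the 97.7 and 97.0 percentile. A second strong region lay 119 kb beyond the gene's end (63424319 to 63424704, 685 and 526). It was followed after 286 bp by a weaker region (63424991 to 63425144, 107 and 164) and 3553 bp farther on by another (63428698 to 63428849, 61 and 37). Inside the gene 1 region was shared (63586500 to 63586842, 93 and 126). A further 2 peaks inside were in replicate 1 alone and 3 in replicate 2 alone, and no peak of replicate 1 alone at Epha3 scored above 85. The highest peak of replicate 2 alone, score 166, was 359.9 kb upstream.

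At Epha7 (chromosome 4, 28813066 to 28967503), which has been tied to Hoxa13 in vessels of the tubercle, all shared regions were distant. Both replicates had 5 peaks, 4 regions were shared, and Epha7 was the nearest gene to all 4. The closest was 91.6 kb upstream (28721275 to 28721522, scores 96 and 137). The strongest was 339 kb beyond the end (29306688 to 29306993, 213 and 186). Inside the gene there was a peak in replicate 2 alone (28862774 to 28862995). Its score of 204, the 81.0 percentile, was the highest of all the unshared peaks at the 10 genes, and replicate 1 had no peak there.

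Both B-type receptor genes had few regions. Ephb2 (chromosome 4, 136647536 to 136836326), a receptor for Efnb1 to Efnb3 products, had 3 peaks in replicate 1 and 2 in replicate 2, with 2 regions shared. Its promoter region (136835966 to 136836304) scored 536 and 756, at the 95.7 and 98.8 percentile, and its midpoint was at -118 bp from the start. This was the highest score in replicate 2 at any region inside or nearest to a member. The other region was nearer to Zbtb40 and weak (55 and 100). Ephb3 (chromosome 16, 21204620 to 21223309), which acts beside Ephb2 in gut and palate, had 3 peaks in each list and 2 shared regions. The first was inside the gene, 6.24 kb past the start (21210814 to 21211171, 102 and 83), and the second 72.7 kb beyond its end (21295955 to 21296131, 102 and 114). The Ephb3 regions stood between the 41.9 and 58.7 percentile, below the promoter regions of Ephb2, Epha3 and Efna4 in both lists.

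**Figure D2:**
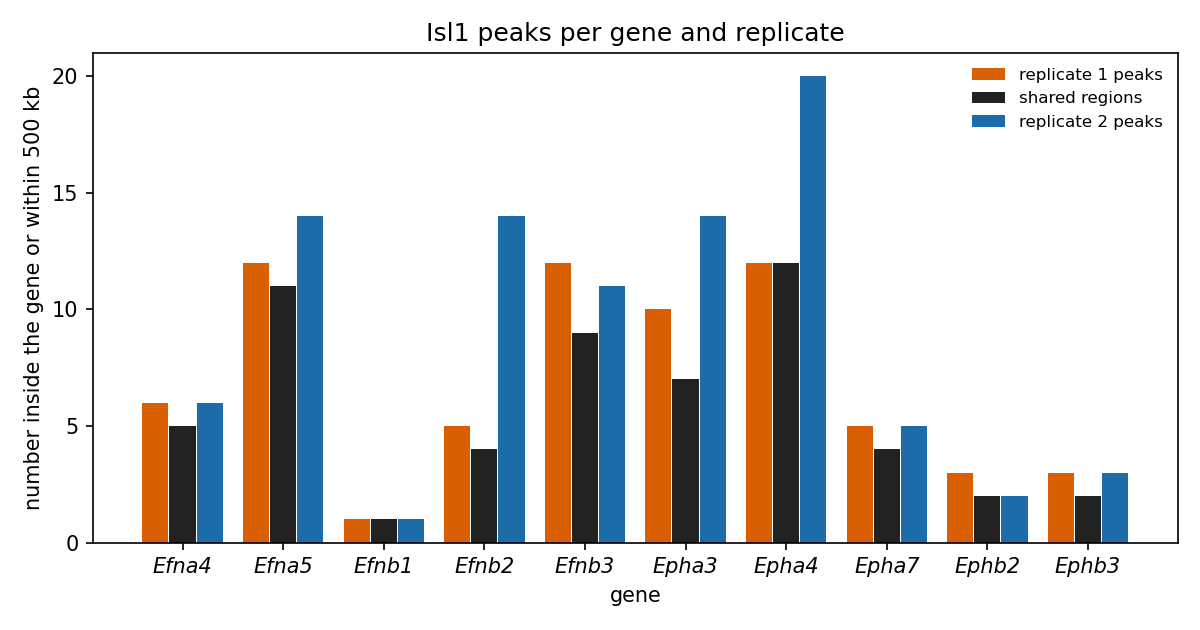
Number of Isl1 peaks inside each gene or within 500 kb, for replicate 1 (orange) and replicate 2 (blue), with the shared regions between them (black). Replicate 2 exceeds replicate 1 most at Efnb2 (14 against 5) and Epha4 (20 against 12), while both lists give 1 at Efnb1.

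Over the 10 genes, 57 of 69 peaks of replicate 1 were shared (82.6%, Wilson 95% interval 72.0 to 89.8%) and 59 of 90 of replicate 2 (65.6%, 55.3 to 74.6%). The whole lists, which include these peaks, gave 78.5% (77.6 to 79.3%) and 68.3% (67.3 to 69.2%). These intervals cover counting error only and take peaks of the same libraries as independent, so they are no test of a difference. The read depth of the lists is unknown. Of the 31 unshared peaks of replicate 2, 8 lay at Efnb2, 8 at Epha4 and 7 at Epha3. Unshared peaks at the members had a median score of 57.5 in replicate 1 and 63 in replicate 2, against 105 and 126 for shared ones, and in the whole lists the medians were 60 and 66 against 104 and 126. Across the 57 regions the scores had a Spearman correlation of 0.822, against 0.717 over all 6834. Regions share the same libraries and are not independent, so this describes the lists alone. The score was higher in replicate 2 at 34 regions and in replicate 1 at 22.

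**Figure D3:**
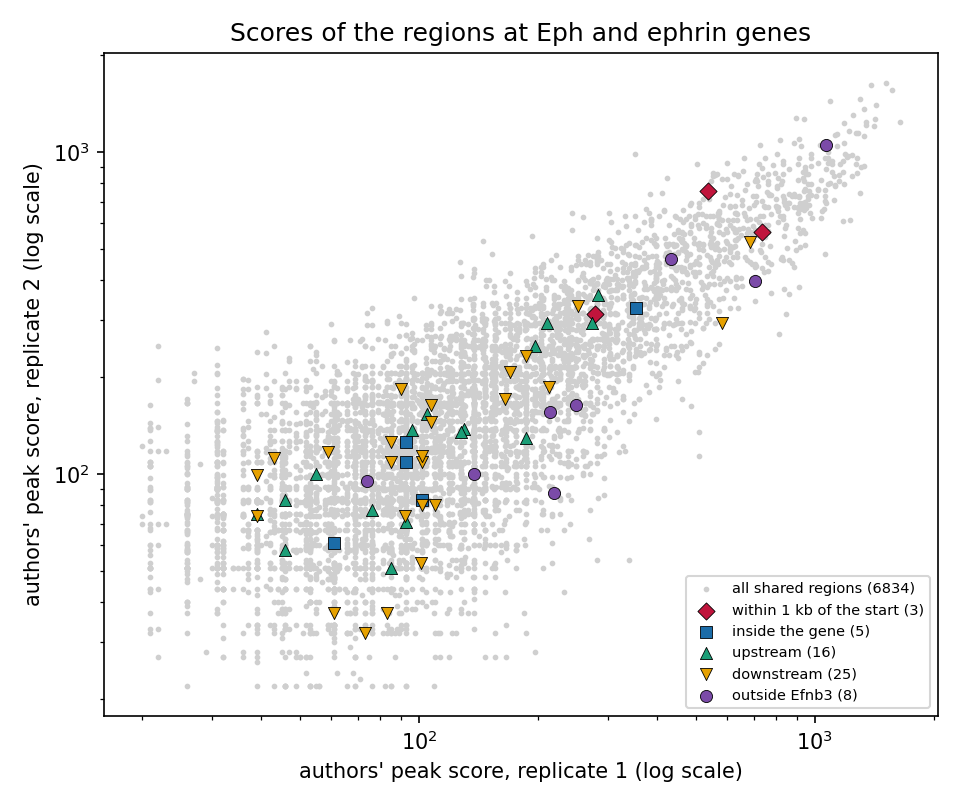
Authors' peak scores of the 57 regions in replicate 1 and replicate 2 (log axes), coloured by place relative to the member, over all 6834 shared regions in grey. The 3 promoter regions (red diamonds) lie in the upper right, and most regions inside or downstream of the genes lie near the middle of the cloud.

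The regions at the members were of ordinary strength: the median score was 105 and 126, against 107 and 127 over all shared regions, and the median width 256 bp against 251 bp. By place, 3 lay within 1 kb of the member's start, 5 elsewhere inside a gene, 16 upstream and 25 downstream, and 8 outside Efnb3, for which no direction was used. The region inside Efnb3 is among the 5, although whether it lies near the start could not be told. The lower of the 2 scores had a median of 536 at the starts, 93 inside, 100.5 upstream, 85 downstream and 160 in the gene-rich surroundings of Efnb3. Of the 57, 7 lay within 1 kb of the RefSeq start of a protein-coding gene, the other 4 at starts of Zbtb7b, Pmvk, Polr2a and Dlg4. This was 12.3%, against 12.2% of the 6507 shared regions examined. Those 6507 leave out chromosome 18, for which starts were not used. The 7 at the members had a median lower score of 273, against 94.5 for the remaining 50, and over the 6507 regions the values were 220 and 85. Higher scores at starts were thus seen over those regions as well. Starts were listed for only 17492 of the 21887 protein-coding genes, so regions at unlisted starts count among the rest. The strongest region, inside Kdm6b, had its nearest listed start at Dnah2, 131 kb away. Neighbouring regions were closest at Efna5 (234 bp apart, 62498557 to 62498770 and 62499005 to 62499278), Epha3 (286 bp) and Epha4 (413 bp, 77100716 to 77101178 and 77101592 to 77101769).

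All 10 members had at least 1 shared region inside or within 500 kb, as did 78% of protein-coding genes. The median count was 4.5 against 2, and per Mb of window 4.40 against 1.97. It was 4 at the other 12 family genes and 4 at the 40 genes described below that act with Eph receptors. A median count above that of all protein-coding genes was thus not particular to the members. Counts at least as high as that of Epha4 occurred at 0.923% of protein-coding genes, of Efna5 at 1.45%, of Efnb3 at 3.34% and of Epha3 at 8.33%. Efna4 stood at 19.4%, Efnb2 and Epha7 at 29%, Ephb2 and Ephb3 at 60.2% and Efnb1 at 78%. Ranked by count, Epha4, Efna5, Efnb3 and Epha3 were at the 99.2, 98.8, 97.2 and 93.2 percentile of protein-coding genes. Ranked per Mb of window, they were at 98.8, 97.2, 97.7 and 88.1. A region lay inside 6 members (Efna5, Efnb3, Epha3, Epha4, Ephb2 and Ephb3), against 8.32% of protein-coding genes. Length moves with this value: the members have a median length of 96.0 kb against 17.2 kb over all genes. Of the 5 members of at least 100 kb, 4 had a region inside, against 39.4% of all such genes, and its part in the difference was not tested. A region was inside or, within 100 kb, nearest to 9 of 10 members, Efnb1 being the exception, against 14.1% of protein-coding genes. The list appears to have been drawn up with that measure known, so its high share is a description of the choice. A region inside a gene also counts in that measure, so the shares of members with a region inside carry the same limit. Regions of that measure also count within 500 kb, so the members' counts, densities and ranks above carry it too. The region nearest the edge of a window on the inner side was 457 kb from Efnb3 (scores 214 and 156), and on the outer side 519 kb from Efnb2 (72 and 76).

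**Figure D4:**
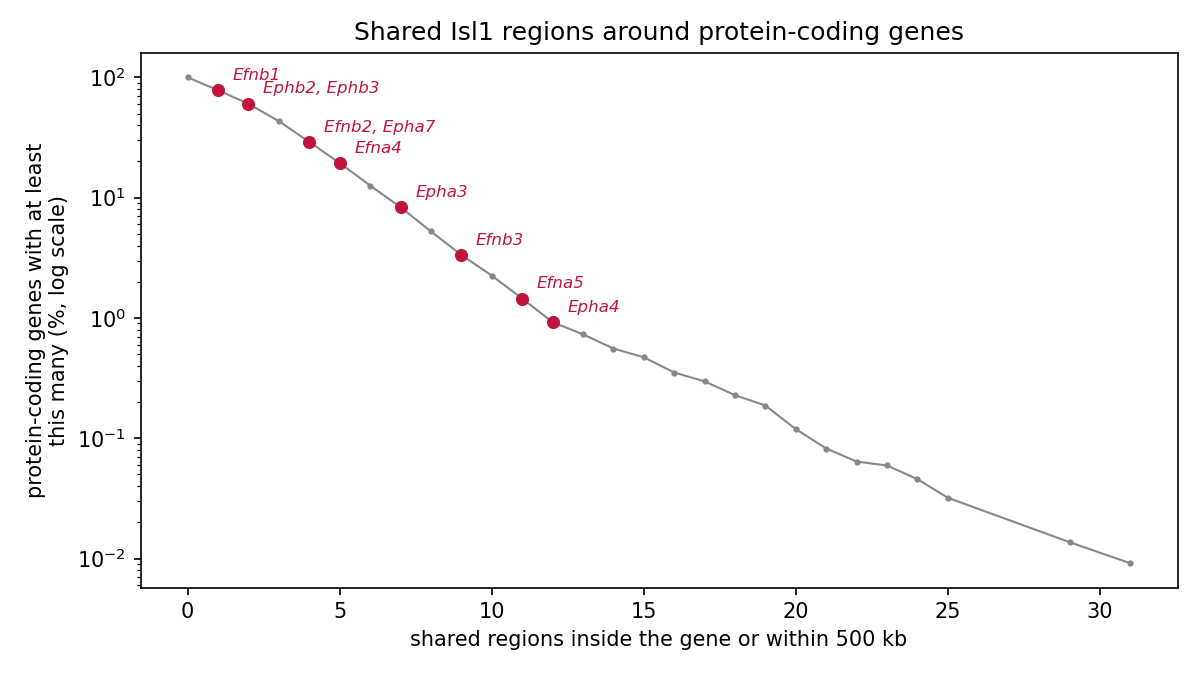
Percent of the 21887 protein-coding genes (log axis) with at least a given number of shared regions inside them or within 500 kb, with the 10 members marked in red. Epha4 (12 regions), Efna5 (11) and Efnb3 (9) lie in the upper tail, whereas Efnb1 (1), Ephb2 and Ephb3 (2 each) do not. Of the 9 at Efnb3, only 1 was inside or nearest to it.

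The other 12 family genes had fewer regions of their own. A region was inside or within 500 kb of 10 of them, with a median count of 4, and none had one within 1 kb of its start. Epha5 was the single gene with a region inside it (chromosome 5, 84094034 to 84094379, scores 60 and 176). Ephb1 had 6 regions in its window, the closest 78.5 kb away, and Efna1, Efna2 and Efna3 had 5, Epha10 and Ephb4 4, Epha2 3 and Epha8 2. The stronger of the Epha8 regions was the Ephb2 promoter region. Epha6, a very long gene (969 kb), had 1 region 73.4 kb away, and Epha1 and Ephb6, neighbours on chromosome 6, had none. Since the list appears to have been drawn up from genes with regions, this gap between the 10 and the 12 was fixed by the choice and is not read further.

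Of 40 genes for enzymes, adaptors and exchange factors that act with Eph receptors, 9 had a shared region inside, or 22.5% against the 8.32% of all protein-coding genes. The 40 are long genes (median 104 kb), and of all protein-coding genes of at least 100 kb, 39.4% had a region inside. The part of length was not tested. Tns3, a focal adhesion protein gene, had 3 regions inside, of which the strongest scored 364 and 235 (chromosome 11, 8656885 to 8657176). Kalrn, a guanine nucleotide exchange factor gene of ephrin-B signalling, had 2 weak ones (46 and 83, 66 and 82), and the kinase gene Abl1 had 2 (179 and 215, 199 and 166). Chn1, the gene of the Rac-inactivating protein that acts downstream of Epha4, had 1 inside (chromosome 2, 73619510 to 73619798, 522 and 517). Its window held 10 regions and 9 other protein-coding genes, and only 1 region was inside or, within 100 kb, nearest to Chn1. Vav3 (76 and 90), an exchange factor gene, Pdzrn3 (85 and 32), a ubiquitin ligase gene, Rgs3 (253 and 260), a regulator of G-protein signalling, and the kinase gene Abl2 (53 and 59) had 1 each. The last of the 9, Tiam1, a Rac exchange factor gene, also had 1: at 661 and 956 (chromosome 16, 90007647 to 90008243) it had the highest scores of the 13 regions inside these genes.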

How the data were processed

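ChIP-seq peak lists of the 2 Isl1_ChIP samples were used, grouped and numbered by their titles. Trimmomatic 0.35, Bowtie2 2.2.6, MACS2 2.1.0.20150731 and bedtools, with build mm10, are named in the submitters' processing notes, which give no settings here. The authors deposited 1 list per sample with a position and a score per peak. How the score, the threshold and the input were set is not given in the sources used here, and neither is the depth, so the lack of a peak does not show that Isl1 was absent. Distances run from the middle of the longest stretch that both replicates' peaks cover. Gene spans came from RefSeq (GRCm38.p6), and starts, strands and sequences from a RefSeq promoter table that matched 9 of the 10 members (Efnb3 did not match) and that was used without chromosome 18. Overlap, window and motif code was tested on simulated data (Python 3.11.15, numpy 2.4.6, pandas 2.3.3, scipy 1.17.1). Members, lists and naming rules were chosen with earlier results of these data known. All members were described. In each window the regions inside the member, the closest and the strongest were named, and of the 40 pathway genes all 9 with a region inside. The naming rule allowed 6 of these, but 6 genes tied at 1 region, so the last 3 were named after their values were seen. Alternatives changed the overlap, score minimum, window, midpoint, gene assignment and replicate.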

Additional observations from a re-analysis of the deposited data

How the results depend on the processing

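Of 163 values under alternatives, 120 stayed within the limits set for them and 43 moved, 31 of these being counts at single genes. The limit was 1.5 times for a count and the members' Wilson interval for sharing. For the score percentile it was the standard deviation of the 2 replicate medians. A smaller window could only lower a count and a larger one only raise it. The total of 57 regions became 29 with both scores at least 100, 21 with a window of 100 kb and 88 with a window of 1 Mb. By nearest gene only it was 38. The 19 regions inside or nearest to another gene had a median lower score of 129, against 91.5 for the 38. Leaving out a replicate gave 69 to 90 peaks in all, and 8 to 14 inside the genes in place of 6. With both scores at least 100, 2 regions inside were left. The median score percentile, 61.5 over both lists, became 68.0 and 83.5 with scores of at least 50 and 100, 78.7 within 100 kb, and 45.4 to 57.2 when all peaks of a single list were used. Percentiles were kept from the full lists, so the rise with a score minimum was largely built in. Sharing of replicate 1 rose to 90.5% by nearest gene only. At single genes, Efnb1 had none with both scores at least 50, and Epha4 had 3 and Efna5 5 within 100 kb. A window of 500 kb around each gene's middle was added after the data were seen and gave 56 regions in all. The causes were not tested. A change of window could not alter the regions inside a gene, and leaving out a replicate left no sharing to compute. No paired analysis was possible because peaks were listed for a single group, the ChIP samples.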
